A study of Mus musculus with 6 samples.

Results

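The genes of the AMPK and mTORC1 pathway considered here were 10 genes chosen by name, *Prkaa1*, *Prkaa2*, *Prkab1*, *Prkag1*, *Stk11*, *Tsc1*, *Tsc2*, *Rheb*, *Mtor* and *Rptor*, out of 41388 genes in the table. The rule uses names and no threshold on a measured value. All 10 were found in the table and all 10 passed the filter of a mean of at least 0.5 RPKM. RPKM is the number of reads per kilobase of gene, scaled to the size of the library, so that levels can be set against each other between genes as well as between libraries. The RNA came from cells described as primary murine hepatocytes of C57BL/6J mice, liver parenchymal cells released by collagenase and kept overnight in growth medium. In the control group (β-gal, replicates 1, 2 and 3) the cells received adenovirus encoding beta galactosidase, and in the other group (Aloxe3, replicates 7, 8 and 9) adenovirus encoding ALOXE3, the lipoxygenase-family enzyme eLOX3. Both groups received about 1000000 viral particles per 1000000 cells and were collected 24 h later, so that cells of both carried an adenovirus. The labels give neither the animals behind each library nor whether the cultures were separate, and p-values therefore measure the spread between these libraries, which may be technical.

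AMPK is a kinase made of a catalytic α subunit, a scaffolding β subunit and a γ subunit that binds AMP, ADP and ATP. It becomes active when cellular energy falls and the upstream kinase LKB1, the product of *Stk11*, phosphorylates the α subunit. mTORC1 is the kinase complex built on mTOR and Raptor (*Rptor*) that promotes growth and restrains autophagy when nutrients are plentiful. The GTPase Rheb switches it on at the lysosome, and the TSC1-TSC2 complex holds Rheb in its inactive form. AMPK phosphorylates TSC2 and Raptor and thereby lowers mTORC1 activity, and in the fasting liver the kinases turn metabolism from synthesis toward oxidation. The comparison asked whether mRNA levels of these genes changed when *Aloxe3* was overexpressed. These kinases are controlled largely by phosphorylation and nucleotides, which RNA-seq does not measure.

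RefSeq promoter windows (GRCm38.p6), covering 250 bases before and 50 bases after the start of the gene, were found for 10 of the 10 genes. Windows of 4 genes are printed 5′ to 3′ on the strand of the gene. *Prkaa1* and *Prkaa2* are shown because they encode alternative catalytic subunits of AMPK and differed in level in every library, *Rheb* because its window was the only one of the 10 with an E-box, and *Stk11* because its window was the only one with a FOXO site. Capitals mark motif matches on either strand.
Prkaa1 (chr15:5143611-5143910, plus strand): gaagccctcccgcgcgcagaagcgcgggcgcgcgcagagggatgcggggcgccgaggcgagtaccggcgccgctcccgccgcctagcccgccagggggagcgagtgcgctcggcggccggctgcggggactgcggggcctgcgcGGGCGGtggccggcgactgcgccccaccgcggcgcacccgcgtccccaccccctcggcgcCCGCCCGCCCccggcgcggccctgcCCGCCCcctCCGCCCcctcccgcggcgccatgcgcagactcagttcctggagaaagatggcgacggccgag
Prkaa2 (chr4:105109849-105110148, minus strand): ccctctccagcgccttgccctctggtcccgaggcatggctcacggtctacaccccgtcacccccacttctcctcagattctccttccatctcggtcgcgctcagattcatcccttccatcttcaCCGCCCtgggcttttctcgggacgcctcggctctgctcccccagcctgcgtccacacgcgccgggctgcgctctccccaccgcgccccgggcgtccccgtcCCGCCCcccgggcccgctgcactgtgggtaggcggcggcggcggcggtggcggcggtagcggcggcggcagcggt
Rheb (chr5:24842312-24842611, minus strand): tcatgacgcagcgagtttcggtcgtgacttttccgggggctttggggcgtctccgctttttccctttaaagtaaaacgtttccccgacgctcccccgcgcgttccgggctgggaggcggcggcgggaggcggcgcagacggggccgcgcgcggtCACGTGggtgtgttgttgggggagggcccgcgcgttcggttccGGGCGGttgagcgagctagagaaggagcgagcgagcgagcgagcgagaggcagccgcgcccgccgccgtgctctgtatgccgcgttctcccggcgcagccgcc
Stk11 (chr10:80115545-80115844, plus strand): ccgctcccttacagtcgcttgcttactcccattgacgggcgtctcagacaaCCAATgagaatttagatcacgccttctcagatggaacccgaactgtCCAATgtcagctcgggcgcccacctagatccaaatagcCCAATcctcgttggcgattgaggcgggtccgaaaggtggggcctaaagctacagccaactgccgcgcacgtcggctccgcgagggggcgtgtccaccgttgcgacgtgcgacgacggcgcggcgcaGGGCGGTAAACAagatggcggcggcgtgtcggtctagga

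In the *Prkaa1* window the capitals mark 5 GC boxes (GGGCGG), 2 of which overlap each other, and in that of *Prkaa2* they mark 2. The *Prkaa1* window had a GC content of 82.0% and 52 CpG dinucleotides, and that of *Prkaa2* a GC content of 72.7% and 35, against medians of 52.7% and 7 over the 32851 windows in the table. In *Rheb* the capitals mark an E-box (CACGTG), a motif bound by TFEB, MYC and other basic helix-loop-helix factors and present in 7.15% of all windows, and 1 GC box. In *Stk11* they mark 3 CCAAT boxes (CCAAT) and a GC box that shares 1 base with a FOXO site (GTAAACA), which 3.65% of all windows held. Over the 10 genes a GC box was present in 6 windows (35.7% of all windows) and a CCAAT box in 3 (37.4%), namely those of *Mtor*, *Stk11* and *Prkag1*. No window of the 10 held a CRE (TGACGTCA, 1.79% of all windows), a TATA box (TATAAA, 13.6%) or the DR1 element bound by PPAR with RXR (0.0396%). A match describes these letters in this window and is not a binding site.

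The library size used in the RPKM scaling, derived from the steps between values, ranged from 25521908 to 32431318 reads. *Aloxe3*, the gene delivered by the virus, was at 1.95 ± 0.18 RPKM in the control group and at 48.1 ± 7.32 RPKM in the group given its virus (SD, n = 3 each), which followed the labels. Among hepatocyte markers *Alb* (albumin) was at 4362 to 4552 RPKM and *Hnf4a* at 25.4 to 29.3 RPKM, whereas *Cps1* (urea cycle), *Cyp2e1* and *Tat* did not exceed 1.64, 2.86 and 0.66 RPKM in any library. Of the bile duct markers *Spp1* reached 1638 RPKM, *Krt19* 51.0 RPKM and *Sox9* 49.3 RPKM, while *Epcam* and *Krt7* did not exceed 0.46 and 0.16 RPKM. The summed levels of the 7 Kupffer cell, 6 endothelial and 6 stellate markers stayed at or below 5.95, 18.5 and 3.90 RPKM. For none of the marker lists were the sums separated between the groups. Among the marker genes 1 passed the adjusted threshold, *Fgb* (fibrinogen β chain, 305 ± 11.3 against 476 ± 22.7 RPKM with Aloxe3). *Cps1*, at 0.985 ± 0.069 against 1.496 ± 0.181 RPKM, was higher with Aloxe3 without overlap and did not pass (limma adjusted p = 0.161). Its log2 difference of RPKM + 1 was 0.33 ± 0.07 (SE), on a scale that understates the change of a gene this low. *Tat* was higher without overlap as well, at 0.28 ± 0.08 against 0.58 ± 0.12 RPKM, and fell under the filter. Other markers lay lower with Aloxe3 without overlap and did not pass, *Apoa1* at 243 ± 2.85 against 227 ± 8.55 RPKM and *Serpina1a* at 52.2 ± 1.07 against 48.3 ± 0.31 RPKM. *Epcam*, at 0.43 ± 0.03 against 0.26 ± 0.10 RPKM, was also lower without overlap and fell under the filter. The stellate marker *Colec11*, at no more than 0.024 RPKM in any library, was listed at 0 in the Aloxe3 libraries. The part of cell composition in the values was not tested, and in bulk samples fewer cells of a type cannot be told apart from less RNA per cell. Aloxe3 replicate 9 stood apart, with the highest or lowest value of the 6 libraries in 49.9% of the tested genes, against 24.4% to 37.0% in the others. Among the 10 genes, replicate 9 held the lowest value for 4 and the highest for 1, and Aloxe3 replicate 8 held the highest for 5.

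None of the 10 genes passed the test for a difference between hepatocytes overexpressing *Aloxe3* and the β-gal control (limma on log2(RPKM + 1), Benjamini-Hochberg adjusted p from 0.53 to 1.00). Across the 12693 genes tested 50, or 0.394%, passed an adjusted p of 0.05 (0.355% higher and 0.0394% lower with Aloxe3). At an unadjusted p under 0.05 the count was again 0 of 10, against 12.7% of all tested genes (7.31% higher and 5.42% lower), and limma voom on the derived reads called 0 of 10 as well. In each of the 10 genes the values of the groups overlapped, and groups without overlap were found for 19.9% of the tested genes (11.2% higher and 8.71% lower). The log2 difference, Aloxe3 minus β-gal, ranged from -0.06 (*Stk11*) to 0.07 (*Rheb*), positive in 5 genes and negative in 5, where 52.4% of all tested genes had a positive difference. Its median was 0.0024, against 0.0049 over all tested genes. The sign of this median was not stable, as it was -0.0084 without Aloxe3 replicate 8, 0.0158 without Aloxe3 replicate 9 and -0.0106 after rescaling to the same median. The 95% intervals of all 10 genes lay between -0.16 and 0.16 on this scale. On derived reads they reached from 11.6% lower (*Prkag1*) to 12.6% higher (*Rheb*). The derived reads of both these genes are known only up to a common factor, which bears on their intervals.

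**Figure D1:**
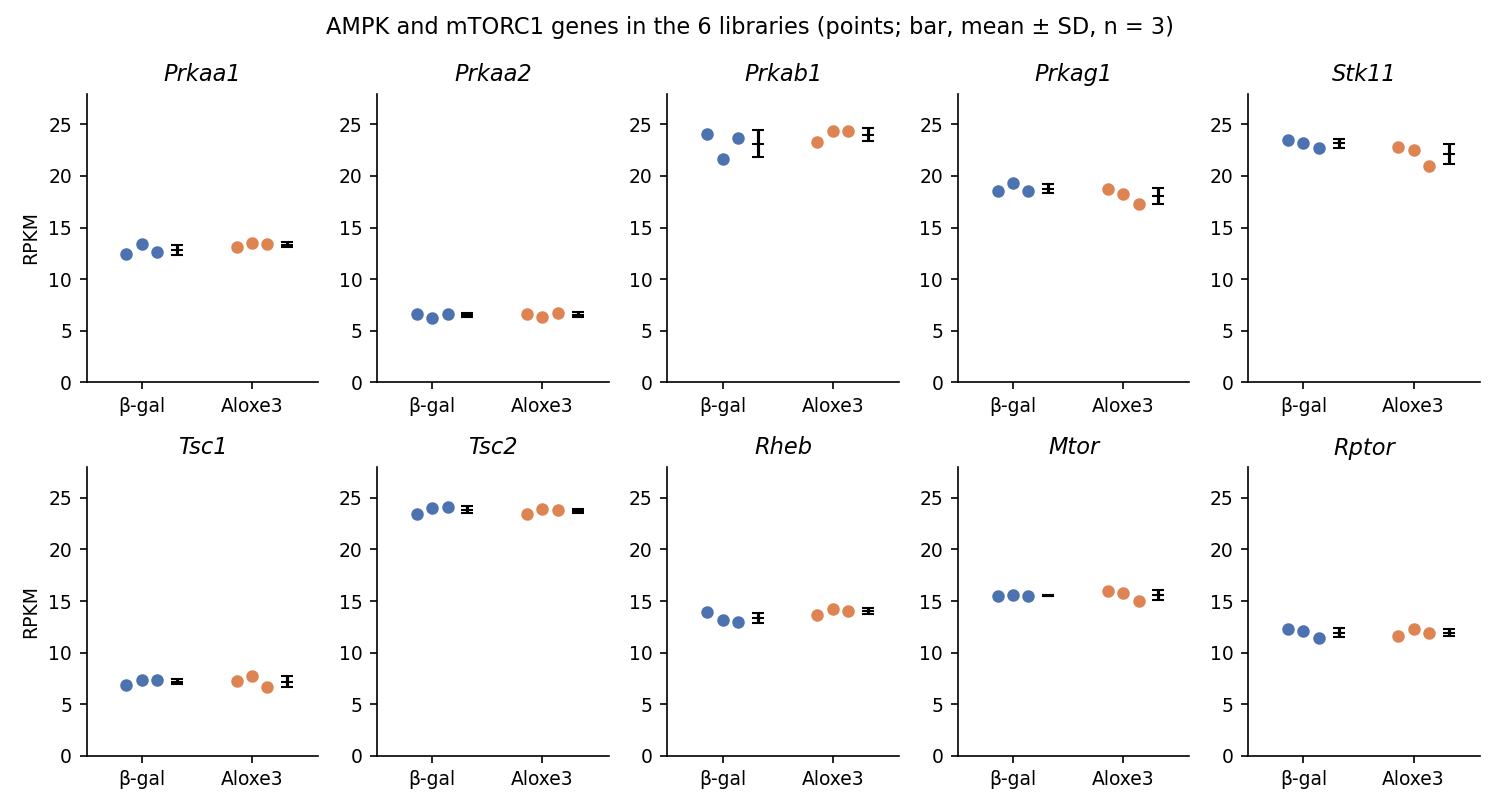
RPKM of each of the 10 genes in the 3 β-gal libraries (blue) and the 3 Aloxe3 libraries (orange), with the mean and SD of each group as a black bar, on an axis from 0. Points within a group stand in the order of their replicate numbers, and in every panel the ranges of the groups overlap.

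The catalytic subunits came first. *Prkaa1* encodes AMPKα1 and lies on chromosome 15 (GRCm38, 5143861 to 5181899). It was at 12.4, 13.4 and 12.6 RPKM in the β-gal replicates 1, 2 and 3, and at 13.1, 13.5 and 13.4 RPKM in the Aloxe3 replicates 7, 8 and 9. The Aloxe3 values sat at the upper end, but β-gal replicate 2 exceeded Aloxe3 replicate 7. The group means were 12.8 ± 0.51 and 13.4 ± 0.20 RPKM (SD, n = 3 each), a log2 difference of 0.06 ± 0.04 (SE, limma adjusted p = 0.583). *Prkaa2* encodes AMPKα2, the other catalytic isoform, and lies on chromosome 4 (105029874 to 105109890). Its level was 6.61, 6.26 and 6.62 RPKM with β-gal and 6.59, 6.35 and 6.75 RPKM with Aloxe3. The lowest value in each group came close to that in the other, and the log2 difference was 0.01 ± 0.04 (SE, limma adjusted p = 0.930). *Prkaa1* was the higher of the pair in every library, by 1.88 to 2.14 times.

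Of the regulatory subunits, *Prkab1* (β1, which holds the complex together and carries a glycogen-binding domain) lies on chromosome 5 (116013586 to 116024508). It was at 24.0, 21.7 and 23.7 RPKM with β-gal and 23.3, 24.4 and 24.3 RPKM with Aloxe3. Here β-gal replicate 2 was the lowest of all libraries, and the β-gal group had the largest spread of any of the 10 genes in that group (CV 5.56%). *Prkag1* (γ1, the nucleotide-binding subunit) lies on chromosome 15 (98812797 to 98831521). It was at 18.5, 19.3 and 18.5 RPKM with β-gal and 18.7, 18.2 and 17.3 RPKM with Aloxe3. Aloxe3 replicate 9 was the lowest of these, and the log2 difference of -0.05 ± 0.04 (SE, limma adjusted p = 0.639) came to -0.02 without that library. In the GENCODE M21 annotation 43.7% of the exon bases of *Prkag1* are overlapped by the antisense gene *B130046B21Rik*. The library protocol does not mark strand, so reads of the overlapping genes cannot be told apart there. As the study counted unambiguous reads, those in the overlap may be missing, and the level of *Prkag1* may be too low.

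*Stk11* (LKB1) lies on chromosome 10 (80115803 to 80130682). Its level was 23.5, 23.2 and 22.7 RPKM with β-gal and 22.8, 22.5 and 20.99 RPKM with Aloxe3. The Aloxe3 values were the lower ones apart from replicate 7, which exceeded β-gal replicate 3. The log2 difference was -0.06 ± 0.04 (SE, limma adjusted p = 0.560), the most negative of the 10 genes, and without Aloxe3 replicate 9 it was -0.03. The antisense gene *Cbarp* overlaps 5.07% of the *Stk11* exon bases.

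Among the genes that set Rheb activity, *Tsc1* (hamartin, which stabilizes the complex) lies on chromosome 2 (28641228 to 28691167). It was at 6.88, 7.32 and 7.30 RPKM with β-gal and 7.22, 7.69 and 6.62 RPKM with Aloxe3, so that the highest and the lowest value both came from Aloxe3 libraries. The SD of the Aloxe3 group, 0.54 RPKM, was a CV of 7.49% and the largest relative spread among the 10 genes in either group. *Tsc2* (tuberin, the GTPase-activating subunit) lies on chromosome 17 (24595816 to 24632630). It was at 23.4, 24.1 and 24.1 RPKM with β-gal and 23.5, 23.9 and 23.8 RPKM with Aloxe3. The Aloxe3 values all lay inside the β-gal range, and the log2 difference was -0.01 ± 0.03 (SE, limma adjusted p = 0.940). *Pkd1*, on the opposite strand, overlaps 7.20% of the *Tsc2* exon bases. *Rheb*, the GTPase that activates mTORC1, lies on chromosome 5 (24802823 to 24842624). It was at 13.9, 13.1 and 13.0 RPKM with β-gal and 13.7, 14.3 and 14.1 RPKM with Aloxe3. β-gal replicate 1 exceeded Aloxe3 replicate 7, and the log2 difference of 0.07 ± 0.04 (SE) had the smallest adjusted p of the 10 genes (limma, 0.533).

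*Mtor*, the kinase itself, lies on chromosome 4 (148448611 to 148557683). It was at 15.52, 15.54 and 15.52 RPKM with β-gal and 16.0, 15.8 and 15.0 RPKM with Aloxe3. The β-gal values fell inside the Aloxe3 range and their CV of 0.0864% lay under the 1.47% that counting of its reads alone gives, so that the closeness of these 3 values is no measure of precision. *Rptor* (Raptor, the subunit that brings substrates to mTORC1) lies on chromosome 11 (119602905 to 119899576). It was at 12.3, 12.1 and 11.5 RPKM with β-gal and 11.6, 12.3 and 11.9 RPKM with Aloxe3. The group means were the same to 3 digits, 11.9 ± 0.43 and 11.9 ± 0.34 RPKM (SD, n = 3 each). Behind the 10 genes stood 747 (*Prkag1*) to 5335 (*Rptor*) derived reads per library. Those of *Prkag1*, *Rheb* and *Tsc2* are known only up to a common factor.

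**Figure D2:**
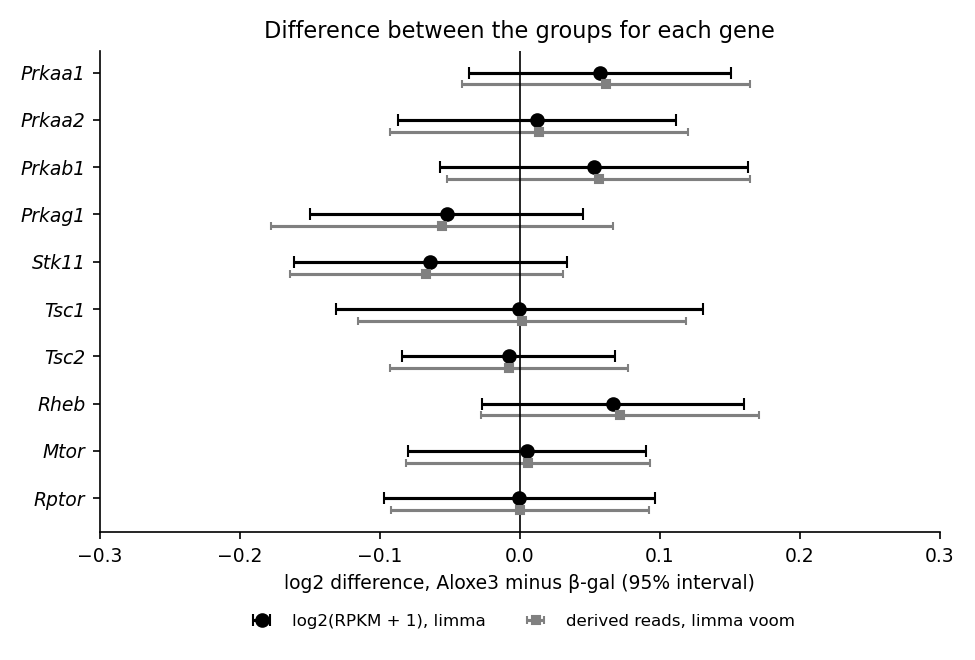
Log2 difference, Aloxe3 minus β-gal, of each of the 10 genes with its 95% interval, from limma on log2(RPKM + 1) (black circles) and from limma voom on derived reads (grey squares). Every interval includes 0, and those in black lie between -0.16 and 0.16.

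Set in order of the mean RPKM over the 6 libraries, the levels ran from *Tsc2* (23.8 ± 0.29, SD), *Prkab1* (23.6 ± 1.02) and *Stk11* (22.6 ± 0.89) through *Prkag1* (18.4 ± 0.68), *Mtor* (15.6 ± 0.31), *Rheb* (13.7 ± 0.52), *Prkaa1* (13.1 ± 0.46) and *Rptor* (11.9 ± 0.34) to *Tsc1* (7.17 ± 0.37) and *Prkaa2* (6.53 ± 0.18). The ranges of *Tsc2* and *Prkab1*, *Prkab1* and *Stk11*, *Rheb* and *Prkaa1*, and *Tsc1* and *Prkaa2* overlapped over the libraries. *Tsc2* was the higher of its pair in 3 of 6 libraries, and *Prkab1*, *Rheb* and *Tsc1* were the higher of theirs in 5 of 6. The ranges of the other neighbours were apart. *Tsc2* exceeded its partner *Tsc1* by 3.11 to 3.60 times in every library, and *Mtor* exceeded *Rptor* by 1.26 to 1.37 times.

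The AMPK subunits are encoded by families of alternative genes, and 1 isoform of each led. *Prkab2* (β2) was at 2.95, 2.89 and 3.08 RPKM with β-gal and 3.03, 2.81 and 3.04 RPKM with Aloxe3. *Prkag2* (γ2) was at 4.20, 4.20 and 4.23 RPKM with β-gal and 4.32, 4.13 and 4.26 RPKM with Aloxe3, and antisense transcripts overlap 14.5% of its exon bases. *Prkag3*, the γ3 isoform known from skeletal muscle, was at 0.17 to 0.22 RPKM (18 to 24 reads) and fell under the filter. The α2 gene accounted for 33.7% ± 1.56 of the catalytic RPKM with β-gal and 33.0% ± 0.86 with Aloxe3 (SD, n = 3 each; two-sided exact permutation test p = 0.6). The β1 gene accounted for 88.6% ± 0.43 and 89.0% ± 0.59 of the β RPKM (exact permutation p = 0.5), and the γ1 gene for 81.0% ± 0.52 and 80.3% ± 0.71 of the γ RPKM (exact permutation p = 0.4). The groups overlapped in each of these 3 shares, and adjusted over the 3 each p was 0.6. With 3 libraries against 3 the test cannot give a p below 0.1.

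Sums over the isoforms were added after the values were seen. Summed over *Prkaa1* and *Prkaa2*, the catalytic genes were at 19.0, 19.6 and 19.2 RPKM with β-gal and 19.7, 19.9 and 20.2 RPKM with Aloxe3. These groups did not overlap (19.3 ± 0.31 against 19.9 ± 0.22, SD, n = 3 each), which gave the smallest p the exact permutation test allows, 0.1, and 0.3 adjusted over the 3 sums. The sums over the β and γ genes overlapped between the groups.

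**Figure D3:**
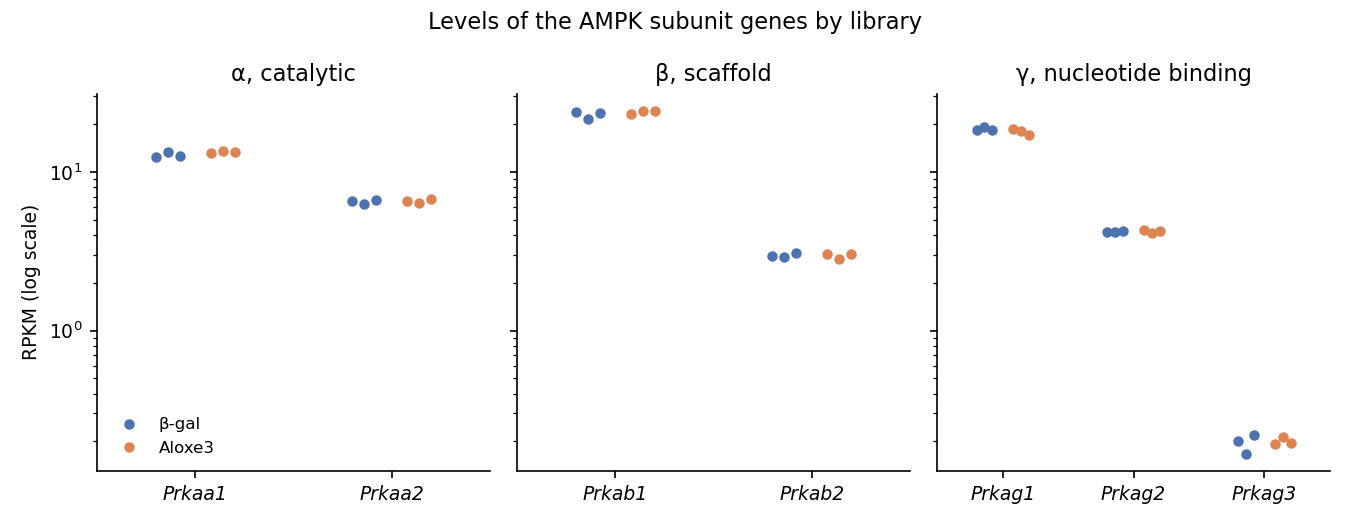
RPKM of the 7 AMPK subunit genes, on a log axis, in each β-gal (blue) and Aloxe3 (orange) library. Within each subunit *Prkaa1*, *Prkab1* and *Prkag1* lie above their alternatives in all 6 libraries, and *Prkag3* lies at 0.17 to 0.22 RPKM.

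The wider pathway was described with 11 lists by role, 107 genes with the 10 included, of which 99 passed the filter on low values. None passed the adjusted threshold (limma), and voom called 0 as well. At an unadjusted p under 0.05 there were 7 (7.07%), 3 higher and 4 lower with Aloxe3, against 12.7% of all tested genes. Groups without overlap were seen for 13 of the 99 (13.1%), 8 higher and 5 lower, against 19.9% of all tested genes. The count of 7 was 4 without β-gal replicate 1, β-gal replicate 2 or Aloxe3 replicate 8, 3 without β-gal replicate 3, 6 without Aloxe3 replicate 9 and 11 without Aloxe3 replicate 7, and the count over all tested genes, 1616, lay between 1039 and 1835 in these fits.

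Upstream of AMPK, 7 of 8 genes were tested and the median log2 difference was 0.01. *Strada*, the pseudokinase partner of LKB1, was at 1.89, 1.78 and 1.94 RPKM with β-gal and 2.07, 2.19 and 2.00 RPKM with Aloxe3. Its values did not overlap between the groups, but the log2 difference of 0.11 ± 0.05 (SE) had an adjusted p of 0.459 (limma). The ratio of *Stk11* to *Strada* was 12.4 ± 0.66 with β-gal and 10.6 ± 0.39 with Aloxe3 (SD, n = 3 each), also without overlap. As 1 of 12 ratios computed after the values were seen, it had an exact permutation p of 0.1 and an adjusted p of 0.84. *Cab39* (MO25α, the scaffold of that complex) was at 24.6 ± 0.24 and 25.2 ± 0.48 RPKM, and *Camkk2*, the calcium-dependent kinase of AMPK, at 6.00 ± 0.10 and 6.04 ± 0.28 RPKM. Of the other kinases activated by LKB1, 9 of 12 were tested, with a median of 0.02, and *Mark3*, a microtubule-affinity-regulating kinase, had the smallest p (-0.07 ± 0.04, SE, limma adjusted p = 0.545).

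Among AMPK substrates 11 of 12 genes were tested, 7 with positive and 4 with negative differences, and the median was 0.03. *Acaca* and *Acacb*, the acetyl-CoA carboxylases that AMPK inhibits, were at 2.98 ± 0.07 and 2.53 ± 0.06 RPKM with β-gal and at 3.21 ± 0.17 and 2.76 ± 0.14 RPKM with Aloxe3. Their groups did not overlap, and their adjusted p-values were 0.548 and 0.510 (limma). The groups did not overlap for *Pfkfb2* either, a gene of the bifunctional enzyme that makes and removes a glycolytic activator. *Ppargc1a* (PGC-1α, the coactivator of mitochondrial genes) had the smallest p of this list. It was at 1.35, 1.52 and 1.53 RPKM with β-gal and 1.52, 1.78 and 1.79 RPKM with Aloxe3, which overlapped at Aloxe3 replicate 7 (0.13 ± 0.07, SE, limma adjusted p = 0.468).

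In the list of TSC complex and Rheb, 5 of 5 genes were tested and the median was near 0 (-0.00028). *Rhebl1*, the Rheb paralog, was at 3.63 ± 0.10 and 3.46 ± 0.45 RPKM, with Aloxe3 replicate 9 the lowest at 2.96. Of the mTORC1 and mTORC2 subunits 9 of 9 were tested. *Mapkap1* (SIN1, an mTORC2 subunit) was at 17.0, 17.1 and 16.3 RPKM with β-gal and 16.0, 15.0 and 15.3 RPKM with Aloxe3 (-0.12 ± 0.04, SE, limma adjusted p = 0.313). *Deptor*, an inhibitor of mTOR, was at 5.79, 6.56 and 6.99 RPKM with β-gal and 7.22, 7.55 and 7.41 RPKM with Aloxe3 (0.18, limma adjusted p = 0.321). Neither gene's groups overlapped, and neither passed the adjusted threshold.

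In the amino acid branch, which recruits mTORC1 to the lysosome, 12 of 13 genes of the Rag GTPases, Ragulator and folliculin were tested, 3 with positive and 9 with negative differences. Their median was -0.05, and 0.0025 without Aloxe3 replicate 9. *Lamtor2*, a Ragulator subunit, was at 39.6 ± 0.85 and 37.0 ± 1.17 RPKM without overlap (limma adjusted p = 0.367). Of the GATOR, KICSTOR and amino acid sensor genes 16 of 16 were tested, 8 in each direction. *Depdc5* (GATOR1, an inhibitor of the Rag GTPases) was at 2.53, 2.63 and 2.62 RPKM with β-gal and 3.05, 2.94 and 2.84 RPKM with Aloxe3 (0.13 ± 0.05, SE, limma adjusted p = 0.320). *Castor1*, the arginine sensor, was at 6.54 ± 0.33 and 5.73 ± 0.45 RPKM (limma adjusted p = 0.333). Both were without overlap and neither passed.

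The smallest p among the 99 genes belonged to *Ddit4* (REDD1), an inhibitor of mTORC1 induced by stress. It was at 47.7, 52.8 and 49.0 RPKM with β-gal and 44.5, 46.0 and 40.5 RPKM with Aloxe3, so that each Aloxe3 value was under each β-gal value. The log2 difference was -0.19 ± 0.06 (SE), with a limma adjusted p of 0.285. *Ddit4l*, the other stress inhibitor listed, went the other way (log2 difference 0.06), at 1.45 ± 0.13 against 1.54 ± 0.18 RPKM with Aloxe3, with overlap. In the list of Akt input to TSC2, 8 of 8 genes were tested and the median log2 difference was 0.02. *Akt1*, a kinase that phosphorylates TSC2 downstream of insulin, was at 103 ± 2.48 and 96.7 ± 3.91 RPKM, and *Akt2* was at 11.5 ± 0.17 and 11.9 ± 0.45 RPKM.

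Of the mTORC1 substrates and effectors 14 of 15 were tested, 7 in each direction, with a median of 0.01. *Eif4ebp1* (4E-BP1, the translation repressor) had the highest level of any gene in the lists, 644 ± 17.8 and 628 ± 16.3 RPKM. *Rps6kb1* (S6K1) was at 5.62 ± 0.16 and 5.87 ± 0.33 RPKM, *Ulk1*, the autophagy kinase, at 15.9 ± 1.15 and 16.1 ± 0.61 RPKM, and *Tfeb*, the lysosomal transcription factor, at 1.83 ± 0.08 and 1.94 ± 0.12 RPKM. *Tfe3*, its relative, had the smallest p of the list (-0.06 ± 0.04, SE, limma adjusted p = 0.548). *Rps6kb2* is listed at 0 in all libraries, and other genes overlap 23.7% of its exon bases. *Rps6* was at 1.69 ± 0.27 and 1.57 ± 0.21 RPKM, and 43.8% of its windows of 50 bases are shared with pseudogenes, so that its level is uncertain where uniquely aligned reads are counted.

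**Figure D4:**
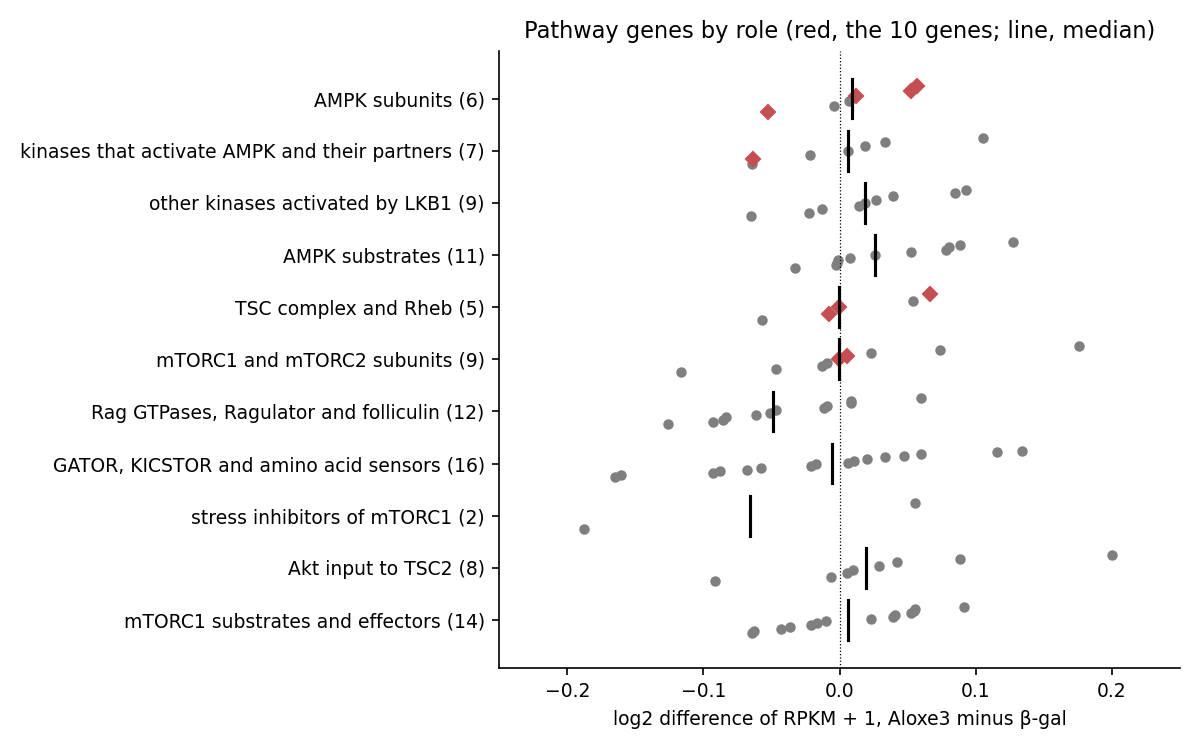
Log2 difference of RPKM + 1, Aloxe3 minus β-gal, of the 99 tested pathway genes in 11 lists by role, with the number of tested genes in brackets, the 10 genes as red diamonds and the median of each list as a black line. The lowest point is *Ddit4* at -0.19. The lowest medians are those of the stress inhibitors, a list of 2 genes in opposite directions, and of the Rag GTPases, Ragulator and folliculin.

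Likeness of pattern was measured as Pearson's r of log2(RPKM + 1) over the 6 libraries with the 7365 other genes at a mean of at least 5 RPKM, and is given as a description. The genes most like *Prkaa1* were *Mrpl46* (r = 0.996), *Elf2* (0.967) and *Prrg4* (0.965), and 43 genes had r above 0.9. Those most like *Mtor* were *Pla1a* (0.994), *Eci1* (0.992) and *Mccc2* (0.983), and 136 genes had r above 0.9. Among the other 9 of the 10 genes r with *Prkaa1* ranged from -0.48 (*Stk11*) to 0.35 (*Rheb*), and r with *Mtor* from -0.46 (*Prkaa2*) to 0.74 (*Tsc1*). All genes in a library share its preparation and depth, and with only 6 libraries high values of r arise among many genes.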

How the data were processed

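RNA-seq of poly(A) RNA was performed in 6 libraries, 3 per group, with groups taken from the sample labels. Per the submitters' processing notes and the study's methods, single reads of 50 bases were aligned with STAR 2.0.4b to GRCm38.p2 (Ensembl). Per the same sources, reads that were unambiguous and uniquely aligned were counted per gene with featureCounts 1.4.5. The authors deposited RPKM values for 41388 genes. The step from counts to RPKM and the strand setting are not given in the sources used here. These values were used without further scaling.

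A pseudocount of 1 was added before the log2 transform. Genes whose mean over the libraries reached 0.5 RPKM, 12693 in all, entered a linear model in limma 3.58.1 (R 4.3.3) with a mean-variance trend, and p-values were adjusted over all of them by the Benjamini-Hochberg method, with a threshold of 0.05. Fold changes on this scale understate those of low genes. The 95% intervals are those of limma and cover the spread between libraries. Reads were derived from the whole-number steps of RPKM, to within 0.02 of a whole read, with GENCODE M21 exon lengths for 16539 genes and otherwise by taking the shortest length under which all reads come out whole (8449 genes, with *Prkag1*, *Rheb* and *Tsc2* among them), for which reads are known up to a common factor. At the lowest depth, 1 read per kilobase of exon equalled 0.0392 RPKM. Replicates were compared on genes with at least 10 derived reads, and differed beyond sampling noise in every pair (chi-square per degree of freedom 3.94 to 13.7). Shares, sums and ratios were compared by two-sided exact permutation tests (scipy 1.17.1). Gene models come from GENCODE M21 (GRCm38; 40254 identifiers matched), in which 50-base windows shared with other genes were counted, and promoters from RefSeq.

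The 10 genes, the lists and the tests were chosen with earlier results of these data known. Named genes were the 10, the other AMPK subunits, in each list every gene past the threshold and the other gene with the smallest p, the 3 genes most like *Prkaa1* and *Mtor*, and *Aloxe3* as a check of the labels. A gene that this rule names is not reported here. Any further gene was named after its values were seen. The alternatives tried were a pseudocount of 0.1, no filter, a filter at 5 RPKM, quantile normalization, equal medians, eBayes without trend, voom on derived reads, shares of derived reads, and each library left out. The scripts were tested on simulated data. As the labels name the same sequencing run for all libraries, no batch was fitted.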

Additional observations from a re-analysis of the deposited data

How the results depend on the processing

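Over 13 alternative settings, the 10 genes gave 130 values, of which 0 passed the adjusted threshold (smallest adjusted p 0.392, limma) and 116 kept their direction. No filter, the filter at 5 RPKM and eBayes without trend leave the log2 difference of a gene unchanged, so its direction could not turn there. The 14 values that turned belonged to *Prkaa2*, *Mtor*, *Rptor* and *Tsc1*, none of which differed by more than 0.0124 in the fit reported above. *Prkaa2* came to -0.0017 with quantile normalization and *Mtor* to -0.0082 with rescaling to the same median, and *Tsc1* to 0.0013 with voom. With 1 library left out the range was -0.0102 to 0.0328 for *Prkaa2*, -0.0109 to 0.0295 for *Mtor*, -0.0271 to 0.0187 for *Rptor* and -0.0451 to 0.0498 for *Tsc1*. Of the other genes, *Prkag2* came to -0.0048 with rescaling and -0.0167 with quantile normalization, and with 1 library left out ranged from -0.0046 to 0.0217, *Prkab2* from -0.0191 to 0.0231 and *Rhebl1* from -0.12 to 0.0264. The count of all genes past the threshold moved from 50 to 7 with no filter on low values, where 24989 genes were tested, to 173 with voom, and to between 6 (without Aloxe3 replicate 7) and 19 (without Aloxe3 replicate 9) with 1 library left out. The cause of the move with voom was not tested. Of the called genes 90.0% were higher with Aloxe3, 71.4% with no filter and 85.0% with voom. The count of pathway genes at an unadjusted p under 0.05 moved from 7 to 10 with rescaling or voom and to between 3 and 11 with 1 library left out, and the median of the 10 genes from 0.0024 to -0.00077 with quantile normalization. The counts of the 10 genes and of the pathway genes past the threshold were 0 in every setting. No paired analysis was possible because the groups share no replicate numbers. The number of libraries, 3 per group, limits the intervals, and with 2 against 3 the exact permutation test cannot give a p below 0.2.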
